A study of Arabidopsis thaliana with 6 samples.

Results

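Galactinol and raffinose synthesis genes of Arabidopsis thaliana were followed in leaf messenger RNA of wild type and of the pub2pub4 double mutant. The set holds 9 of the 33602 genes of the deposited count table, chosen by gene code from what their products are annotated to do. The choice was made with earlier results of these data known. The set comprises the galactinol synthase genes GOLS1 to GOLS4 and the raffinose synthase family genes RFS5, RFS4, RFS1, RFS6 and RFS2. All 9 were in the table, and 7 had enough reads to be tested. Leaves came from plants 25 days old, grown with 16 h of light and 8 h of darkness, and 3 libraries were made per genotype. Every library is labelled mock. The labels give no details of the mock treatment, the mutant alleles or the wild-type accession. PUB2 and PUB4 encode U-box E3 ubiquitin ligases, which the study places in plant immunity. Whether the replicates are separate plants, pools or repeat preparations is not stated, and p-values therefore cover only the spread among these libraries, which may be technical.

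Raffinose family oligosaccharides are soluble sugars that plants build up in seeds and in leaves under drought, cold, heat or salt stress. Galactinol synthase joins myo-inositol to galactose from UDP-galactose, and raffinose synthase then moves the galactose from galactinol to sucrose, which gives raffinose. Stachyose synthase adds a further galactose, and alkaline alpha-galactosidases, which belong to the same sequence family as raffinose synthase, take the galactose off again. In Arabidopsis, GOLS1 and GOLS2 are known to respond to drought and salt and GOLS3 to cold.

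The libraries held 20506882 to 20732799 expected counts each, that is, estimated reads per gene, and levels are given as CPM, counts scaled to a common library size, after TMM adjustment. The double mutant held few reads of either targeted gene. PUB2 was at 9.40, 10.3 and 7.48 CPM in wild type and at 0.382, 0.543 and 0.588 CPM in pub2pub4, and PUB4 at 20.4, 23.6 and 19.0 CPM against 2.39, 3.45 and 3.83 CPM. Over all 19019 tested genes, 474 were higher and 374 lower in the mutant at an adjusted p under 0.05 by edgeR's quasi-likelihood test. Those counts changed when a library was left out. In the same test 132, 86 and 659 genes passed when wild type 1, 2 or 3 was omitted. The number was 540, 91 and 1210 when pub2pub4 1, 2 or 3 was omitted. Each omission also makes a group smaller, and the part of that in the change was not tested. Mesophyll markers (5 genes) summed to 43800 to 45600 CPM in wild-type libraries and 38000 to 46300 CPM in mutant ones. Guard cell markers (4 genes) summed to 61.8 to 69.5 and 58.6 to 64.7 CPM, and phloem companion cell markers (4 genes) to 550 to 638 and 538 to 550 CPM, in the same order, while 4 root markers summed to 73.3 to 90.3 and 44.5 to 231 CPM. Nearly all of the root sum was BGLU23, at 73.3, 90.2 and 82.9 CPM in wild type and 231, 123 and 44.5 CPM in pub2pub4. The root markers AT3G54580, EXPA7 and AT3G12900 had at most 3 counts in any library. Of 6 seed markers 3 were at 0 in every library, and all 6 together summed to at most 2.39 CPM. The sum of 4 trichome markers ran from 19.2 to 23.2 CPM in wild-type libraries and from 14.1 to 16.7 CPM in mutant ones, and chloroplast-encoded transcripts took 0.230% to 0.394% of counts in wild type and 0.0787% to 0.121% in the mutant. The part of either difference in the results that follow was not tested.

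In pub2pub4 leaves the raffinose synthase family genes RFS6 and RFS2 fell to 0.646 and 0.591 of their wild-type level. GOLS4 was called higher, but from 3 reads over all wild-type libraries, and it passed the filter on low counts only through its mutant libraries. With each of the 6 libraries left out in turn, RFS6 was called 6 times, GOLS4 3 times and RFS2 2 times. GOLS1 and GOLS2 were also at higher values in all 3 mutant libraries than in any wild-type library, but did not pass the test. RFS5, the raffinose synthase gene of stressed leaves, and RFS1 did not pass either, and GOLS3 and RFS4 had too few reads to be tested. Among all tested genes 2.49% were called higher and 1.97% lower, and 13.4% and 12.7% had all mutant libraries above or below all wild-type libraries. Since the RNA is from bulk leaf tissue, fewer cells of a type and less RNA per cell cannot be told apart.

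**Figure D1:**
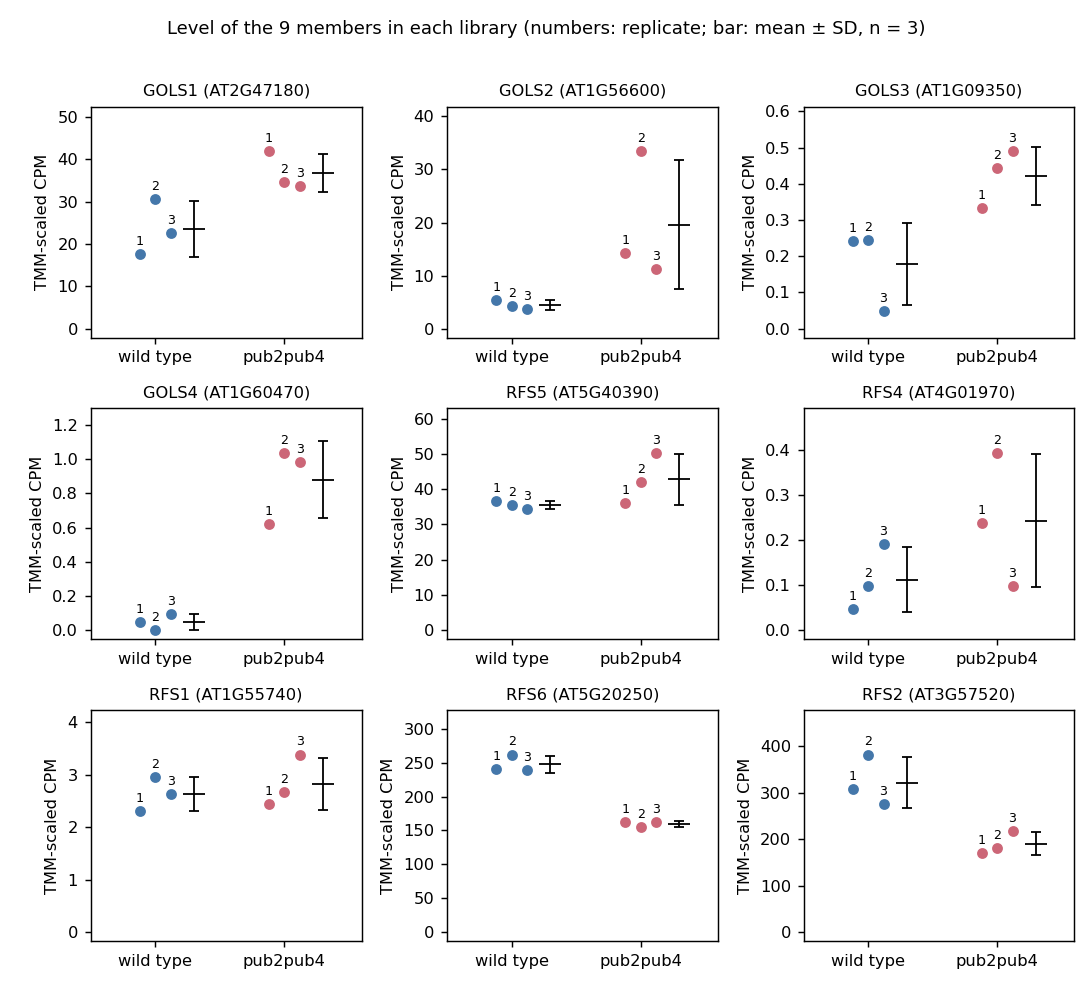
Level of each of the 9 genes in each library, in TMM-scaled CPM on a linear axis; points are libraries with their replicate number, and the bars give mean ± SD (n = 3). The points of the 2 genotypes do not overlap for GOLS1, GOLS2, GOLS3, GOLS4, RFS6 and RFS2, and in GOLS2 the mutant library 2 stands at 33.5 CPM, above 14.2 and 11.2 CPM in the other two.

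Promoter sequence is shown for the 5 genes whose groups of libraries did not overlap and that had enough reads to be tested, since 3 of them were at higher and 2 at lower levels in the mutant. Each stretch runs from 250 bases before to 50 bases after the annotated gene start, on TAIR10.1 as held by RefSeq, written 5′ to 3′ on the strand of the gene. Capitals mark matches, on either strand, to the core of the abscisic acid response element (ACGTG), the core of the dehydration- and cold-responsive element (CCGAC) and a heat shock element of inverted repeats (GAANNTTC). Within a CACGTG, known as a G-box, ACGTG matches on both strands.
GOLS1 (chr2:19370429-19370728, minus strand): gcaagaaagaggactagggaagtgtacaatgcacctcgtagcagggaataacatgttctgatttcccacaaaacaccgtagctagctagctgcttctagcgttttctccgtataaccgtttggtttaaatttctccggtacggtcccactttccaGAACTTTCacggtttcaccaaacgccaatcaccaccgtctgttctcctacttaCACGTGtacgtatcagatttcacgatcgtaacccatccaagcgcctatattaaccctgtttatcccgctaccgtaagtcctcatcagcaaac
GOLS2 (chr1:21207287-21207586, plus strand): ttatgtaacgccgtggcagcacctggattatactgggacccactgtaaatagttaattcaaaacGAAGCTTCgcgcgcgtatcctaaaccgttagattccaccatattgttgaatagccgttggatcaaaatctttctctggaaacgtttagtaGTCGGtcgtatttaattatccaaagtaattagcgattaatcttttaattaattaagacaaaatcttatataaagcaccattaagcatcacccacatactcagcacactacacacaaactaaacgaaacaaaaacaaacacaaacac
GOLS4 (chr1:22280544-22280843, minus strand): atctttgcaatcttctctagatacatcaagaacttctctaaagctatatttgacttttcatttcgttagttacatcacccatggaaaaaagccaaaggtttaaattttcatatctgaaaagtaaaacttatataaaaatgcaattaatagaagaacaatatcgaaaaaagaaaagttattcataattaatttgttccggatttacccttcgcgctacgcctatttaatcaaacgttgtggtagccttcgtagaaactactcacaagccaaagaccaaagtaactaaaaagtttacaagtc
RFS6 (chr5:6833314-6833613, plus strand): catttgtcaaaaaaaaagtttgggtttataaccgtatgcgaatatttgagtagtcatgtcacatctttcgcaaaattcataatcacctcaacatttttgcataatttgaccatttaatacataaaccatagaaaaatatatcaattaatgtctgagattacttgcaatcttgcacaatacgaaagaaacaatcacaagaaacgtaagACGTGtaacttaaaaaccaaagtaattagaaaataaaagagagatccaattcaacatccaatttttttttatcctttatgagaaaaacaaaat
RFS2 (chr3:21293122-21293421, minus strand): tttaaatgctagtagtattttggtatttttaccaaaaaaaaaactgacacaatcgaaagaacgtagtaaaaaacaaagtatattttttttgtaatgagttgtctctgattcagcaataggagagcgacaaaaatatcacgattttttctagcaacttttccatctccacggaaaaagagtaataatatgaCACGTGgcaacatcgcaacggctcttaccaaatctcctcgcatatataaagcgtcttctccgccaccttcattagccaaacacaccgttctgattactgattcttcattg

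In these windows GOLS1 held a G-box whose first base lies 42 bases before the start and a heat shock element 95 bases before it. GOLS2 held a CCGAC core and a heat shock element, at 96 and 186 bases before the start, and no ACGTG. The 1000 bases before its start held 7 ACGTG matches over both strands, among them 3 G-boxes that are each matched on both strands. GOLS4 held none of the 3 motifs in its window, nor any in the 1000 bases before its start. RFS2 held a G-box 60 bases before the start, and RFS6 a single ACGTG 43 bases before it. Of the 27443 protein-coding genes with such a window, 26.7% held ACGTG, 15.0% CCGAC, 11.6% GAANNTTC and 7.7% a G-box. In the whole set of 9, ACGTG was found in 6 windows, CCGAC in 3 (GOLS2, GOLS3 and RFS5) and GAANNTTC in 2. A G-box was found in 3 (GOLS1, GOLS3 and RFS2). In the 1000 bases before the start 8 of the 9 genes held ACGTG, as did 54.4% of the 27443. A G-box lay there in 4 of the 9 and in 14.8% of the 27443. Among the genes shown, the window held ACGTG in GOLS1, at higher values in the mutant, and in RFS6 and RFS2, at lower values. The windows of GOLS2 and GOLS4, also at higher values, held none. A match is a string of letters, not a shown binding site.

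GOLS4 (AT1G60470, chromosome 1, 22278975 to 22280593, minus strand, 4 exons) is a galactinol synthase gene that was almost silent in wild-type leaves. Its expected counts were 1, 0 and 2 in wild type and 13, 21 and 20 in pub2pub4, which is 0.0482, 0 and 0.0959 CPM against 0.621, 1.04 and 0.981 CPM. Every mutant library lay above every wild-type library. Summed over libraries, 54 reads stood against 3, a ratio of 18.1 after scaling with a 95% interval of 5.87 to 90.5 that covers counting error only. GOLS4 rose in the test across all genes (log2 fold change 4.02 ± 0.63 SE, adjusted p 0.0172), where the fitted size depends on the prior count because wild type is near 0. It passed the filter on low counts only through its mutant libraries, and a higher value in the mutant is favoured among genes kept that way. With no filter the edgeR adjusted p was 0.0116. At 0.879 ± 0.225 CPM (SD, n = 3) in the mutant GOLS4 was a minor transcript. Leaving out wild type 1, wild type 2 or pub2pub4 2 ended the call (adjusted p 0.0714, 0.0684 and 0.0719). Over all alternatives the adjusted p ran from 0.00175 by DESeq2 to 0.0866 in the test against 1.5-fold. The fitted log2 fold change was 4.86 without wild type 3 and 3.49 without wild type 2. Its span overlaps AT1G60460 on the opposite strand by 33 bases; that neighbour had 29 to 38 counts in wild type and 32 to 46 in the mutant (adjusted p 0.729).

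GOLS2 (AT1G56600, chromosome 1, 21207537 to 21209635, plus strand, 4 exons), a drought-responsive galactinol synthase gene, had the widest relative spread of the tested members in the mutant. It was at 5.45, 4.23 and 3.64 CPM in wild type and at 14.2, 33.5 and 11.2 CPM in pub2pub4. Every mutant value was above every wild-type value, and pub2pub4 2 was far above the other two. The log2 fold change was 2.14 ± 0.49 (SE), a fold of 4.41 with a 95% interval of 1.87 to 10.4, and the adjusted p was 0.0834 by edgeR (unadjusted 0.00607). DESeq2, which called 7.68% of genes, gave 1.75e-07, while the edgeR adjusted p was 0.0438 without pub2pub4 2 and 0.0460 without pub2pub4 3. Without pub2pub4 2 the log2 fold change was smaller, at 1.51. Over all alternatives the adjusted p ran from 1.75e-07 by DESeq2 to 0.4999 in the test against 1.5-fold.

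GOLS1 (AT2G47180, chromosome 2, 19368798 to 19370478, minus strand, 4 exons), known to respond to drought, salt and heat, was the most abundant galactinol synthase transcript per length. Its values were 17.5, 30.6 and 22.5 CPM in wild type against 41.9, 34.5 and 33.7 CPM in pub2pub4. The groups did not overlap, although wild type 2 came close to the lowest mutant library. The log2 fold change of 0.64 ± 0.20 (SE), a fold of 1.56 with a 95% interval of 1.11 to 2.19, had an adjusted p of 0.150 (unadjusted 0.0185). DESeq2 gave 0.0194, and the alternatives ranged from there to 1 in the test against 1.5-fold. Its span overlaps ARF1 on the opposite strand by 43 bases, a gene at 175 CPM in wild type with a log2 fold change of -0.05.

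GOLS3 (AT1G09350, chromosome 1, 3019639 to 3021443, plus strand, 3 to 4 exons), the cold-responsive member, had 5, 5 and 1 expected counts in wild type and 7, 9 and 10 in the mutant. The mutant counts were all higher, but they were too few for the filter, and no test was made. All mutant libraries lay above all wild-type libraries for 13.4% of all tested genes, a set that does not include GOLS3.

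**Figure D2:**
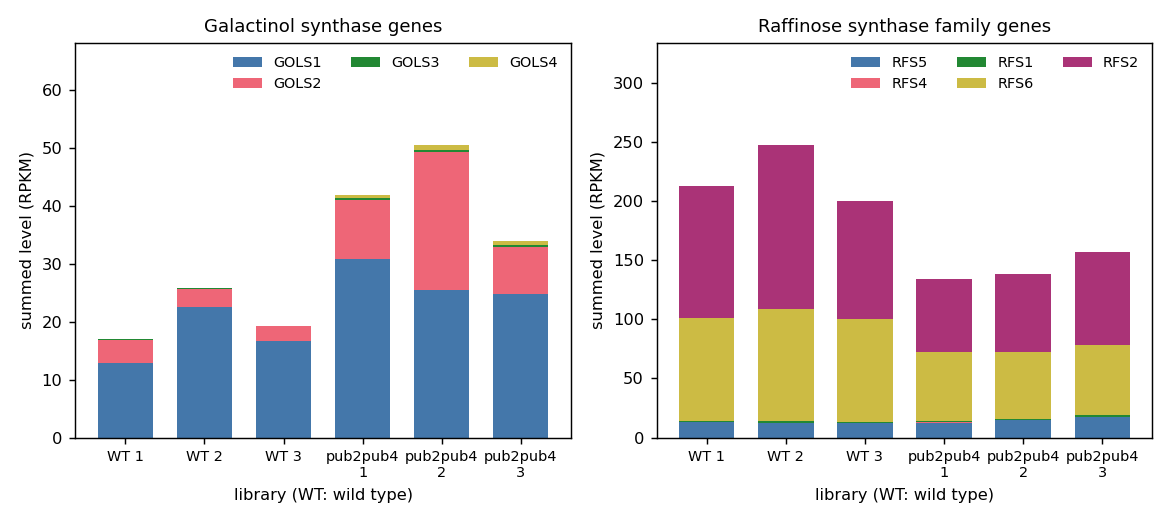
Stacked levels per length (RPKM, CPM divided by the gene length in kilobases) of the 4 galactinol synthase genes on the left and the 5 raffinose synthase family genes on the right, 1 bar per library. The galactinol synthase bars are taller in the mutant (34.0 to 50.5 RPKM) than in wild type (17.1 to 25.8), and the raffinose synthase family bars are shorter (134 to 157 against 200 to 247).

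Per length, GOLS1 made up most of the galactinol synthase transcripts in wild type. It held 75.9%, 87.5% and 86.0% of the summed RPKM of the 4 genes in wild type and 73.9%, 50.4% and 73.2% in pub2pub4. GOLS2 held 22.9%, 11.8% and 13.5% in wild type and 24.4%, 47.4% and 23.6% in the mutant. The mutant library 2, in which both took nearly equal parts, thus stood apart also in composition. GOLS3 and GOLS4 together stayed minor in every library, GOLS4 reaching 2.15% of the sum in pub2pub4 3.

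RFS6 (AT5G20250, chromosome 5, 6833564 to 6836862, plus strand, 4 to 5 exons), also known as DIN10, a gene induced by darkness and sugar starvation, fell with little spread. It was at 241, 262 and 240 CPM in wild type and at 162, 155 and 163 CPM in pub2pub4. The groups were far apart, with an SD of 12.6 CPM among wild-type and 4.43 CPM among mutant libraries. The level was 1.55-fold lower in pub2pub4 (log2 fold change -0.63 ± 0.06 SE, 95% interval -0.78 to -0.48, adjusted p 0.00583). Each of the 6 fits with a library omitted called it, with adjusted p from 0.00419 to 0.0398. The test against 1.5-fold did not call RFS6, and DESeq2 gave the smallest adjusted p, 3.18e-13. An overlapping gene on the other strand, AT5G20260, had at most 1 count in any library.

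RFS2 (AT3G57520, chromosome 3, 21288742 to 21293171, minus strand, 14 exons), whose product acts as an alkaline alpha-galactosidase on raffinose, fell as well. Its values were 307, 382 and 275 CPM in wild type against 171, 181 and 218 CPM in pub2pub4. Wild type 2 was the highest library and pub2pub4 3 the highest mutant one, and the groups did not overlap. The level was 1.69-fold lower (log2 fold change -0.76 ± 0.14 SE, 95% interval -1.09 to -0.43, adjusted p 0.0334). Leaving out wild type 1, wild type 2, pub2pub4 1 or pub2pub4 2 ended the call (adjusted p 0.0976, 0.0773, 0.0833 and 0.121). Over all alternatives the adjusted p ran from 5.09e-06 by DESeq2 to 1 in the test against 1.5-fold.

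RFS5 (AT5G40390, chromosome 5, 16161449 to 16165453, plus strand, 5 exons), the raffinose synthase known to act in leaves under abiotic stress, had nearly equal wild-type libraries and a wider spread in the mutant. It was at 36.6, 35.5 and 34.3 CPM in wild type and at 36.0, 42.0 and 50.3 CPM in pub2pub4. The groups overlapped through pub2pub4 1, which lay below wild type 1. The log2 fold change was 0.27 ± 0.12 (SE), with a 95% interval of 0.00 to 0.54 and an adjusted p of 0.248 (unadjusted 0.0473).

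RFS1 (AT1G55740, chromosome 1, 20835256 to 20838778, minus strand, 12 exons), annotated as seed imbibition 1, was at 2.31, 2.95 and 2.64 CPM in wild type against 2.44, 2.66 and 3.38 CPM in pub2pub4. The groups overlapped, and the log2 fold change was 0.10 ± 0.20 (SE) with a 95% interval of -0.36 to 0.57 and an adjusted p of 0.833. RFS4 (AT4G01970, chromosome 4, 853922 to 857401, minus strand, 4 exons), the stachyose synthase gene known from seeds, had 1, 2 and 4 expected counts in wild type and 5, 8 and 2 in the mutant, too few to test.

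**Figure D3:**
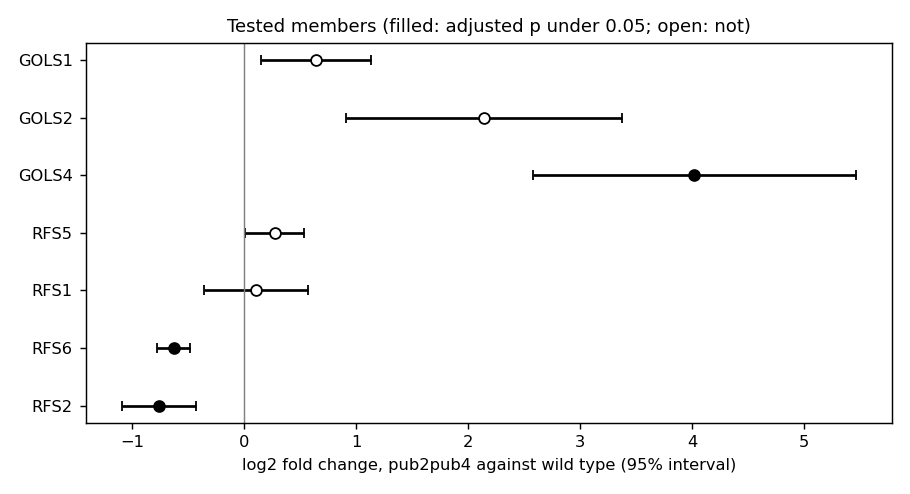
Log2 fold change of the 7 tested genes in pub2pub4 against wild type, with 95% intervals derived from the edgeR fit; filled points passed an adjusted p under 0.05. GOLS4 lies at 4.02, RFS6 and RFS2 lie at -0.63 and -0.76, and the intervals of GOLS1, GOLS2 and RFS5 lie above 0 although none of these genes passed after adjustment over all genes.

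The order of levels per length put the 2 falling genes first in both genotypes. In wild type RFS2 was at 116 ± 19.9 RPKM (SD, n = 3) and RFS6 at 89.9 ± 4.58 RPKM, and their libraries did not overlap. GOLS1 (17.4 ± 4.87 RPKM) and RFS5 (12.5 ± 0.407 RPKM) followed and did not differ beyond their spread. Below them came GOLS2 at 3.18 ± 0.658 RPKM and RFS1 at 1.06 ± 0.129 RPKM, with GOLS3, RFS4 and GOLS4 at 0.137, 0.0398 and 0.0358 RPKM. In the mutant RFS2 (68.8 ± 8.95 RPKM) and RFS6 (58.1 ± 1.61 RPKM) still led, GOLS1 was at 27.1 ± 3.34 RPKM, and the libraries of GOLS2 (14.1 ± 8.65 RPKM) and RFS5 (15.1 ± 2.54 RPKM) overlapped. GOLS4, at 0.655 ± 0.168 RPKM, then stood above GOLS3 at 0.325 ± 0.0616 RPKM.

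RFS2 and RFS6 together held 93.5%, 94.4% and 93.4% of the summed RPKM of the 5 raffinose synthase family genes in wild type and 89.7%, 88.3% and 87.8% in the mutant. The ratio of RFS2 to RFS5, the alpha-galactosidase gene over the synthase gene per length, was 8.60, 11.0 and 8.21 in wild type and 4.85, 4.42 and 4.44 in pub2pub4. For RFS6 over RFS5 it was 6.76, 7.59 and 7.18 against 4.62, 3.78 and 3.33. These ratios restate the values above and are given without a test.

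How far members could share reads was read from their sequences. Among GOLS1 to GOLS4, coding sequences were 70.7% to 83.3% identical, GOLS2 and GOLS3 being the closest pair, and the longest stretch identical between 2 of the annotated transcripts was 26 bases. Within the raffinose synthase family identity was 59.1% to 64.8%, with shared stretches of at most 21 bases. All 54 member values in the table were exactly whole as deposited, with no tolerance, against 95.1% of all values.

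Around these genes, 8 lists of related genes were examined, with 61 of their 71 genes tested. In all 7 rose, 0 fell and 54 did not pass, where 4.46% of all tested genes were called in either direction. DESeq2 and limma-voom called 7.68% and 3.82% of all genes, and 19.7% had an unadjusted p under 0.05 in edgeR. Their median log2 fold change was 0.21, against 0.01 over all tested genes, and 49 fold changes were positive. The number of listed genes called was 1 when wild type 1, wild type 2 or pub2pub4 2 was omitted. In those fits 132, 86 and 91 of all tested genes passed. Omitting wild type 3, pub2pub4 1 or pub2pub4 3 gave 2, 7 and 10 listed genes, beside 659, 540 and 1210 in all. The lists were chosen with earlier results of these data known, so the counts and median of the lists are no independent support.

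Sucrose, the acceptor of galactose in raffinose synthesis, is made by sucrose phosphate synthase and phosphatase and cleaved by sucrose synthase. Of 13 tested genes of this list SUS3, SPP2 and SPS2 rose, 0 fell and 10 did not pass, with a median log2 fold change of 0.24. DESeq2 called 4 higher and limma-voom 3. SUS3, a sucrose synthase gene, was at 1.11, 1.03 and 1.15 CPM in wild type and at 5.78, 5.53 and 3.68 CPM in pub2pub4. All mutant libraries were above all wild-type libraries, and the fold was 4.53 with a 95% interval of 3.13 to 6.55 (adjusted p 0.00684). It was called in all 6 fits that omitted a library. SPP2, for a sucrose phosphate phosphatase, was at 70.7, 66.2 and 72.2 CPM in wild type and at 97.5, 91.6 and 91.9 CPM in pub2pub4 (log2 fold change 0.43 ± 0.06 SE, adjusted p 0.0155), with a call in 3 of those fits. Its span overlaps AT2G35850 on the same strand by 243 bases, a gene with at most 7 counts in any library. SPS2, for a sucrose phosphate synthase, was at 13.1, 12.9 and 12.4 CPM in wild type and at 18.2, 18.3 and 15.6 CPM in pub2pub4 (adjusted p 0.0377), with a call in 1 of them.

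UDP-galactose, the galactose donor for galactinol, comes from UDP-glucose through 4-epimerases. Of 7 tested genes UGE5, an epimerase gene, rose, 0 fell and 6 did not pass, with a median log2 fold change of 0.33. DESeq2 and limma-voom also called 1 higher. UGE5 was at 2.02, 3.10 and 2.97 CPM in wild type and at 6.50, 5.08 and 5.05 CPM in the mutant, without overlap. The fold was 2.05 with a 95% interval of 1.48 to 2.84 (adjusted p 0.0334), with a call in 1 of the 6 fits that omit a library.

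Genes for myo-inositol, the other substrate of galactinol synthase, did not pass the test. Of 8 tested genes 0 were called by edgeR, with 5 at an unadjusted p under 0.05, and DESeq2 and limma-voom called 0. The smallest p-values were those of IMPL1, an inositol monophosphatase family gene (log2 fold change 0.27, adjusted p 0.137), and IPS1, an inositol phosphate synthase gene (0.40, adjusted p 0.155).

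Acid alpha-galactosidases, which cleave galactose from oligosaccharides and glycans, had AGAL2 higher and the other 3 of 4 genes not called, with a median log2 fold change of 0.16. AGAL2 was at 17.7, 17.1 and 16.5 CPM in wild type and at 25.1, 26.0 and 20.6 CPM in pub2pub4 (log2 fold change 0.48 ± 0.10 SE, adjusted p 0.0357). This is the opposite sign to RFS2 and RFS6. It was called in 1 of the 6 fits that omit a library, and DESeq2 called 1 gene of the list and limma-voom 0.

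The other galactinol synthase family genes, GOLS5 to GOLS10 in the naming of that family, had 1 of 6 members tested. It was GATL10, with a log2 fold change of -0.66 ± 0.15 (SE, adjusted p 0.0508). DESeq2 called it lower and limma-voom did not. GOLS7 and GOLS10 had no count in any library.

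Stress transcription factors known to act on galactinol synthase or related stress genes were counted next. Of 14 tested heat shock, CBF/DREB and ABRE-binding factor genes ABF3 and ABF2 rose, 0 fell and 12 did not pass, with a median log2 fold change of 0.34. DESeq2 called 5 higher and limma-voom 2. In 7 of the 14 all mutant libraries lay above all wild-type libraries, against 13.4% of all tested genes. Over the 8 related lists together this held for 23 of 61 tested genes. For 2 of the 61 all mutant libraries lay below, against 12.7% of all tested genes. ABF3, which binds abscisic acid response elements, was at 26.6, 18.7 and 23.5 CPM in wild type and at 40.2, 53.0 and 61.0 CPM in pub2pub4. The groups did not overlap (fold 2.24, 95% interval 1.65 to 3.06, adjusted p 0.0263), with a call in 2 of the 6 fits that omit a library. ABF2, of the same family, was at 23.1, 18.5 and 24.1 CPM in wild type and at 29.0, 35.0 and 37.8 CPM in pub2pub4 (log2 fold change 0.63 ± 0.13 SE, adjusted p 0.0379), with a call in 1 of those fits.

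Heat shock protein genes were not called. Of 8 tested genes 0 were called by edgeR, with 1 at an unadjusted p under 0.05, and DESeq2 and limma-voom called 0. HSP18.1 and HSP17.6, small heat shock protein genes, had log2 fold changes of 0.93 and -0.46 (adjusted p 0.0961 and 0.388), and the list's median was 0.10.

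Dark-inducible genes other than RFS6 were not called either. Of 6 tested genes 0 were called by edgeR, with 2 at an unadjusted p under 0.05, and DESeq2 and limma-voom called 0. DIN4, a branched-chain ketoacid dehydrogenase subunit gene, had a log2 fold change of 0.21 (adjusted p 0.187) and STR15, also known as SEN1 or DIN1, one of -0.64 (adjusted p 0.207). The median was 0.01, as it was over all tested genes. BGLU30, also known as DIN2, was named after its values were seen. It reached the filter's level in 2 libraries only, was not tested, and was at 0.0482, 0.148 and 0.240 CPM in wild type and at 5.87, 9.08 and 0.0981 CPM in the mutant, so pub2pub4 3 lay with the wild type.

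**Figure D4:**
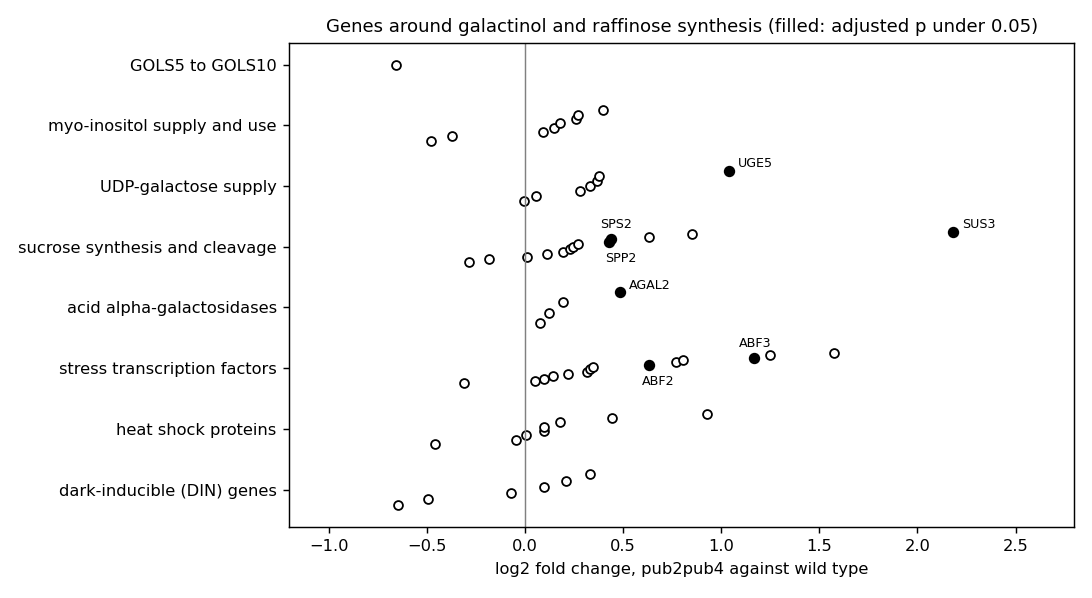
Log2 fold change of the 61 tested genes of the 8 related lists, 1 row per list and 1 point per gene; filled points passed an adjusted p under 0.05. The 7 filled points all lie above 0, SUS3 farthest at 2.18, and the heat shock protein and dark-inducible rows hold open points on both sides of 0.

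Genes whose profile over the 6 libraries was most like that of each called member were picked by the root mean square difference of centred log2 CPM, among 5663 named genes at or above the median level. The profile of GOLS4, with 1, 0 and 2 counts in wild type, depends on the prior count of 2 added before taking logs. Nearest to it on that scale were PUB19, a U-box ligase gene (difference 0.322), ATHB-7, a homeodomain-leucine zipper factor gene (0.359), and LTI78, also known as RD29A, a dehydration- and cold-responsive gene (0.397). Their fitted log2 fold changes were 3.12, 2.11 and 2.04, against 4.02 for GOLS4. For RFS6 they were CRK2 (0.0478) and CRK3 (0.0668), both cysteine-rich receptor-like kinase genes, and FLA9 (0.0757), a fasciclin-like arabinogalactan protein gene. For RFS2 they were CSD2 (0.0792), a copper-zinc superoxide dismutase gene, OPT4 (0.0925), an oligopeptide transporter gene, and BGLU26 (0.104), also known as PEN2. The likeness includes the difference between genotypes and is a description without a test.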

How the data were processed

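Messenger RNA libraries of leaves, 3 of wild type and 3 of pub2pub4, were sequenced on an Illumina HiSeq instrument, per the labels' protocols. The authors deposited 1 table of expected counts for 33602 genes with a length per gene; the submitters' processing notes name RSEM 2.1.30, TopHat2 2.1.0 and the TAIR10 build, without saying what each did; strand setting and filters are not stated. Totals were 20506882 to 20732799 counts per library. Counts were rounded and fitted over the whole table in R 4.3.3 with edgeR 4.0.16: filterByExpr (minimum count 10, total 15), TMM scaling, robust quasi-likelihood test, group as the only term, two-sided, Benjamini-Hochberg adjustment over the 19019 genes kept. SE and 95% intervals were derived from the fold change and F statistic. RPKM used the deposited length, which is fractional for genes with several isoforms. The test was checked on simulated counts. Alternatives were DESeq2 1.42.0, limma-voom (limma 3.58.1), other scalings and filters, no rounding, no organelle genes, a test against 1.5-fold, the replicate number as a block and each library left out. Named were all members, up to 4 called genes per list or the 2 with the smallest p, and the 3 nearest profiles per called member. The members and lists were chosen with earlier results of these data known. Positions, promoters and coding sequences come from TAIR10.1 (RefSeq; Biopython 1.88), since the table holds no coordinates. Of 25 named genes looked up, 6 overlap another gene, SPP2 on the same strand and the other 5 on the opposite strand. Reads in the 5 opposite-strand overlaps cannot be told apart, the strand setting being unknown. In the overlap of SPP2 no strand setting would separate them.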

Additional observations from a re-analysis of the deposited data

How the results depend on the processing

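GOLS4, RFS6 and RFS2 kept their direction under every alternative in which they could be fitted, which for GOLS4 excludes the filter of at least 5 CPM in 3 libraries. RFS1, which was never called, ranged from -0.051 (without pub2pub4 3) to 0.20 with a library left out. With a library left out, 86 to 1210 of all tested genes, 0 to 2 members as higher, 1 to 2 as lower and 1 to 10 genes of the related lists were called. DESeq2 called 1460 genes in all, 3 members higher (GOLS1, GOLS2 and GOLS4) and 12 related genes. A test against 1.5-fold called 26 genes, 0 members higher, 0 lower and 1 related gene, and the filter of at least 5 CPM called 0 members higher, since GOLS4 was not kept. The cause of the other changes was not tested. Under a replicate block 1066 genes passed, with 45.9% higher against 55.9% without it, and 1 member was called lower, RFS2 having an adjusted p of 0.0680. Same-numbered libraries had correlations of 0.126, 0.064 and 0.152 in their deviations from the group means. Libraries of unlike number had correlations from -0.176 to 0.076, the highest between wild type 2 and pub2pub4 1. These values do not settle whether the numbers pair the libraries. No pairing is stated, and the numbers were not taken as pairs. Depth limits GOLS3, GOLS4 and RFS4, each with at most 21 counts in any library.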
